A study of Mus musculus with 3 samples.

Results

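The 150 antisense RNA genes with the most counts were examined in RNA bound to chromatin of mouse macrophages. An antisense RNA is a long non-coding RNA made from the DNA strand opposite to that of another gene. They were chosen by their mean expected count over the libraries from the genes whose transcripts are all annotated as antisense, so their high counts are a description and no finding. They are 150 of 2948 such genes and of 55536 annotated genes in all, and 4 genes of the class were left out by symbol. The data come from 1 group of 3 libraries, biological replicates 1, 2 and 3 by their labels. Bone marrow of C57BL/6J mice was grown into macrophages and given Lipid A (100 ng/ml) during 12 h. The agent was then washed out for 12 h and given once more (100 ng/ml) for 40 min. Lipid A is the part of endotoxin that Toll-like receptor 4 senses. The labels give all 3 the same strain-level donor and no sex or age, so the spread between libraries may be partly technical. With 1 group there is no contrast, and cells without Lipid A were not analysed here.

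Antisense transcription is common at active genes. Some antisense RNAs act on their own locus, by being transcribed across a neighbouring promoter or by bringing silencing complexes to chromatin, and the imprinted RNAs Kcnq1ot1 and Airn are the textbook cases. Such RNAs are often kept on chromatin, and the chromatin fraction also holds unfinished transcripts with their introns. Replicate 1 was made from 1 µg of RNA, replicate 2 from 250 ng and replicate 3 from 500 ng, and they held 13802716, 17187524 and 16502809 counts in annotated genes. All 10 macrophage markers looked at were detected, with summed levels of 1120 to 1254 TPM (a level corrected for transcript length and library size), and none of the 25 markers of erythroid, natural killer, B and T cells and neutrophils reached a mean of 10 counts. Of 5 fibroblast markers 3 did, each at or below 0.36 TPM.

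Whether the authors' counting used the strand of the reads was not stated, and this bears on every value below. Each gene's count came with a posterior standard deviation, which is 0 where every read belongs to that gene alone. It was 0 (under 0.005 counts) for 50 of 55 members whose exons are free of exons of opposite-strand genes that reach 10 counts, and for 19 of 34 members with up to 10% of their exonic bases covered. It was 0 for 3 of 56 members with 10 to 50% covered and for 0 of 4 members with more. Among the other antisense genes that averaged 10 counts or more, the shares were 93.2% of 177, 73.4% of 79, 18.7% of 182 and 2.04% of 49 genes. One member with a same-strand overlap was left out of this count. The more of a member lay under opposite-strand exons, the more rarely its count was free of uncertainty, and no further test of strand was made. Where a member lies in an intron of an opposite-strand gene, unspliced RNA of that gene has the same bases as the member, and reads of a member and of its partner are taken here as not told apart.

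**Figure D1:**
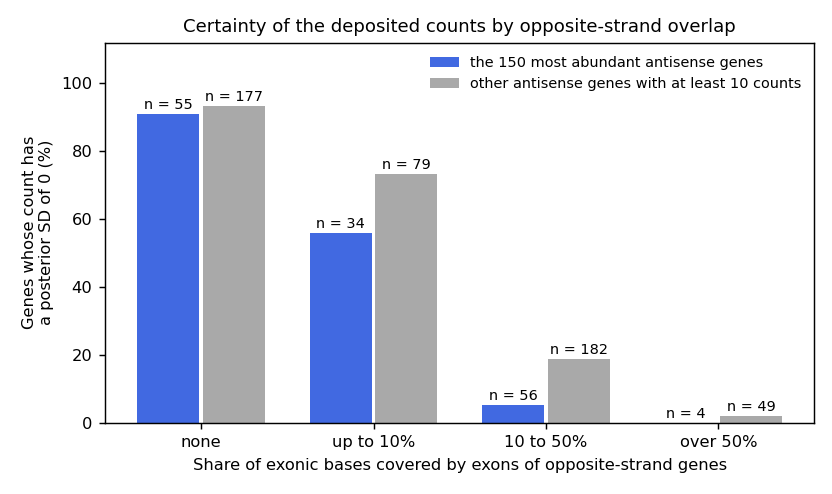
Share of antisense genes (percent, vertical axis) whose deposited count has a posterior SD of 0, by the share of exonic bases covered by exons of opposite-strand genes (horizontal axis), for the 150 most abundant antisense genes and for the other antisense genes that averaged 10 counts or more. Above each bar n is the number of genes. In the 150 genes the share was 90.9% without overlap and 0% with over 50%.

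To show such an overlap, 48 bases are printed from a coding exon that is also an exon of a member, read from GENCODE M21 transcripts on mm10. They were chosen because these pairs are described below, and each begins a shared run of 285 bases (AC119228.1 and Cd274), 148 bases (Gm40578 and Tnfaip2) and 155 bases (Gm16712 and Ebi3). The first of each pair is the reverse complement of the second, so a read from this stretch matches both transcripts unless its strand is used.
AC119228.1, chr19:29380304-29380351, minus strand: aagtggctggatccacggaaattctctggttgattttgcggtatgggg
Cd274, the same bases, plus strand: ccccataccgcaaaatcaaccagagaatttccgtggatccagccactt
Gm40578, chr12:111450658-111450705, minus strand: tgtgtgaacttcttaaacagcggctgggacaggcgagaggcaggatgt
Tnfaip2, the same bases, plus strand: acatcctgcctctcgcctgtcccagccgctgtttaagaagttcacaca
Gm16712, chr17:55956185-55956232, minus strand: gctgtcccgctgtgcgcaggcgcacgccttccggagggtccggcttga
Ebi3, the same bases, plus strand: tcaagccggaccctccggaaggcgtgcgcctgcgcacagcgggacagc

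Together the 150 genes held 0.549% ± 0.0159 of all annotated counts (SD, n = 3). By library this was 0.546% (Wilson 95% interval 0.542 to 0.550%), 0.535% (0.532 to 0.538%) and 0.566% (0.563 to 0.570%), and these intervals cover counting error only. They held 81.7% ± 1.72 of the counts of the whole class, in which 1364 genes had no count in any library. The class is thus dominated by few genes, and 12 members held 50.9% ± 2.16 of the members' counts. The median level of the members was 10.7 TPM, against 2.05 TPM for the other 492 antisense genes that averaged 10 counts or more and 7.32 TPM for the 10952 protein-coding genes that did. Levels ran between 1.08 and 220.2 TPM, with 80 members above 10 TPM, 10 above 50 TPM and 5 above 100 TPM. All 150 had at least 20 counts in every library, and the lowest single count was 37.5. Members were longer than the rest, with a median spliced length of 2527 bases against 1477.5 bases, and a long gene gathers more counts at the same level. At the border, the last members were Gm16794, Gm16982 and 2310043M15Rik with means of 106.0, 104.8 and 104.3 counts. The first genes outside were 1700025N23Rik, A930006L05Rik and Adap2os with 103.3, 102.0 and 101.0 counts.

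Kcnq1ot1 (ENSMUSG00000101609.2, mm10 chromosome 7, 143203458 to 143296549, minus strand) had the most counts. It is the imprinted RNA made from the paternal allele inside Kcnq1, and it silences neighbouring genes in several tissues. Its 11065, 16944 and 16546 counts made up 14.7%, 18.4% and 17.7% of the members' counts in replicates 1, 2 and 3. Spread over a single exon of 93092 bases this came to 8.55, 12.7 and 13.3 TPM, close to the median of the members. Its partner Kcnq1, a potassium channel gene that contains it, had 0, 0.05 and 0 TPM, and no other coding gene with 10 counts overlaps it on the opposite strand. The nearest coding gene with 10 counts, Tssc4, ends 132365 bases away.

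Airn (ENSMUSG00000078247.4, chromosome 17, 12741311 to 12860136, plus strand) is the other imprinted RNA among the members. It starts inside Igf2r, the gene of a receptor that carries enzymes to lysosomes, and its transcription across the Igf2r promoter silences the paternal Igf2r copy in many tissues. Airn had 18.6, 26.5 and 32.9 TPM, against 19.0, 21.2 and 23.0 TPM for Igf2r, and it lay below Igf2r in replicate 1 and above it in the others. Only 3.17% of its exonic bases lie in introns of Igf2r and none in its exons. The table made directly from the reads gave 99.4 TPM for Airn, against 118.5 TPM for Igf2r, so the mean of Airn lay below that of Igf2r there and above it in the gene tables, with 26.0 against 21.1 TPM. Of 49 known antisense and regulatory RNAs listed, 41 were found and 16 belong to the antisense class. Only Kcnq1ot1 and Airn were members. Nron, a regulator of NFAT transport, had a mean of 77.6 counts and Nespas, an imprinted RNA of the Gnas locus, 11.3, while the other 12 of the class had fewer than 10 counts each.

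F630028O10Rik (ENSMUSG00000078122.4, chromosome X, 96239926 to 96243636, plus strand) is 1 of the 5 members without an opposite-strand coding partner. Mir223, the gene of a microRNA abundant in myeloid cells that restrains neutrophil and macrophage activation, lies inside it on the same strand, so F630028O10Rik spans the miR-223 region. It had 55.1, 73.7 and 67.8 TPM, and no protein-coding gene overlaps it or starts within 1000 bases on the opposite strand. Its nearest coding gene with 10 counts is 62542 bases away. Other members with a miRNA gene inside on the same strand were Tmcc3os with Mir7211, Gm47079 with Mir1900, Gm15987 with Mir7649 and Gm28940 with Gm22112. The mature RNAs of Mir223 are printed from RefSeq (GRCm38.p6) with the seed, bases 2 to 8, in capitals.
mmu-miR-223-5p, chrX:96242842-96242864, plus strand: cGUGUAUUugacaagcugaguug
mmu-miR-223-3p, chrX:96242884-96242905, plus strand: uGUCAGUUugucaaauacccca
Both lie within the longer gene, and the mature forms themselves were not measured here.

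Promoter windows from 250 bases before to 50 after the start were in RefSeq (GRCm38.p6) for 57 members, and 29 of these lay within 100 bases of the annotated start used here. Motifs were searched on both strands and matches may overlap. The NF-kB motif was found in 16 of 29 windows, or 55.2%, against 50.8% of 32817 promoters. The AP-1 motif TGANTCA, the core of the interferon-stimulated response element and the PU.1 motif GAGGAAGT were each in 1 window, or 3.45%, against 7.81%, 3.43% and 3.20% of all promoters. The TATA box TATAAA was in 4, or 13.8%, against 13.6%. These shares lie near those of all promoters, and a match is a description. The median number of CG pairs in a window was 5 for the members, against 7 for all promoters. Windows of 3 members described here are printed with the matches in capitals: the NF-kB motif for Gm16712, the response element core for F630028O10Rik and the TATA box for Airn, the last 2 on the opposite strand to the gene.
Gm16712, chr17:55959352-55959651, minus strand: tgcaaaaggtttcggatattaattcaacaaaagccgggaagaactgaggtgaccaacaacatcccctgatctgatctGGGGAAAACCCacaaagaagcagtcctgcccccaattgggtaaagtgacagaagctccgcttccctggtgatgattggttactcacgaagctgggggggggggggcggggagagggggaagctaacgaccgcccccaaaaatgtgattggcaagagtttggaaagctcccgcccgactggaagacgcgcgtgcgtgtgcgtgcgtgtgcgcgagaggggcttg
F630028O10Rik, chrX:96239676-96239975, plus strand: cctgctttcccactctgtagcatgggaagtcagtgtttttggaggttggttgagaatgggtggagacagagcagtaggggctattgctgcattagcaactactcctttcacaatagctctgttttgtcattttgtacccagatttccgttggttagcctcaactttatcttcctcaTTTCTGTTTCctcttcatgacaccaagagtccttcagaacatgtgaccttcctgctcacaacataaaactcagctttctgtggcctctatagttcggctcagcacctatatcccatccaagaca
Airn, chr17:12741061-12741360, plus strand: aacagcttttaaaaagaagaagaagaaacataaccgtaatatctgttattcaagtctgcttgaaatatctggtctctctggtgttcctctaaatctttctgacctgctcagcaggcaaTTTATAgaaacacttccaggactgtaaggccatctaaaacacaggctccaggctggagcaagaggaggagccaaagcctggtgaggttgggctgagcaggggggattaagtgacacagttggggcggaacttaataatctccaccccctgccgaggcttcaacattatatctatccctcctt

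A protein-coding partner on the opposite strand was found for 145 members, and these shared 136 partners. Of the members 87 were embedded in the partner, 32 met it tail-to-tail, 20 head-to-head, 5 spanned it and 1 diverged from it. Among the other 492 antisense genes, 59.8% were embedded, 16.7% tail-to-tail and 17.9% head-to-head. In 43 members every exonic base lay in introns of the partner, 92 touched its exons and 73 its coding sequence. The median member had 82.1% of its exonic bases in introns of the partner. The start lay within 1000 bases of the partner start in 12 members, where both genes may use 1 promoter region. No partner was found for F630028O10Rik, D730005E14Rik, Gm26947, Gm15445 and 4930430E12Rik. Of these, D730005E14Rik had 4.07, 7.65 and 3.68 TPM and overlaps the antiviral gene Apobec3 on the same strand, which had 179.3, 224.8 and 141.6 TPM. Gm15445 had 30.3, 32.0 and 33.8 TPM and overlaps the lysosomal GTPase gene Arl8a on the same strand, which had 108.0, 117.6 and 122.6 TPM.

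Most members had a lower level than their partner. The median log2 ratio of member to partner, each as TPM + 1, was -1.77, with -1.81, -1.80 and -1.67 by library. Members lay below the partner in every library in 113 pairs and above it in every library in 28, with 4 pairs mixed. The mean was higher in the member for 30 pairs. In the table made from the reads, 7 of these 30 turned to lie below the partner, among them Airn and Gm12000, and 3 others turned to lie above it, Gm20234, 2900089D17Rik and Gm48754. Across the 145 pairs, Spearman's rho between member and partner TPM was 0.413. It was 0.342 over the 43 members wholly in introns, with a median log2 ratio of -1.69, and 0.226 over 30 members with under 50% of their exonic bases inside the partner, with a median of -0.52. These correlations are across genes, which are no replicates, and both values of a pair come from the same libraries and can share reads.

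**Figure D2:**
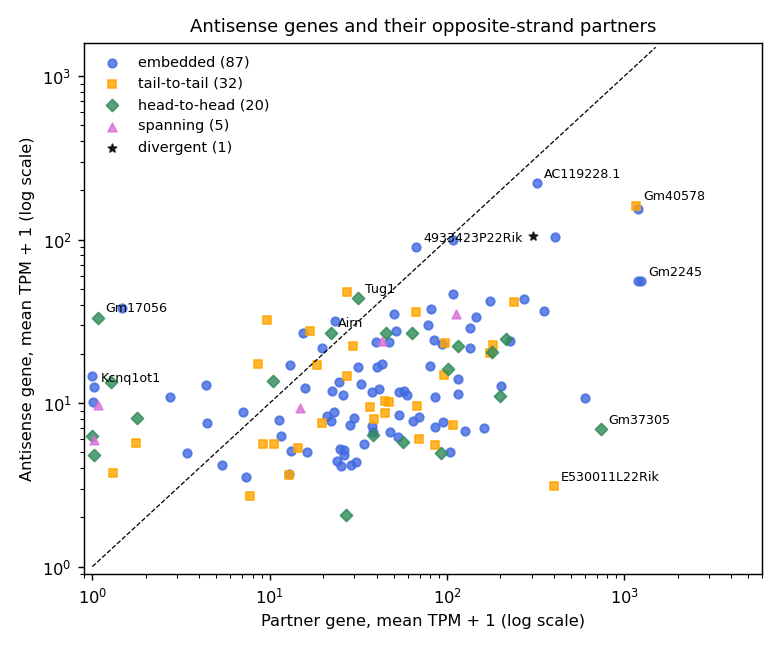
Mean TPM + 1 over 3 libraries of each antisense gene (vertical log axis) against that of its opposite-strand coding partner (horizontal log axis) for 145 pairs, marked by arrangement. Points above the dashed line of equality are the 30 members above their partner, and Kcnq1ot1 and Gm17056 stand at the left edge beside partners that were near 0.

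Of 152 genes on the lists of Lipid A response and macrophage identity, 4 were partners of a member, or 2.63%, against 0.617% of all 22028 coding genes. Among genes that averaged 10 counts or more the shares were 2.76% of 145 listed genes and 1.13% of 10952 coding genes, which is no test. Members were chosen by count and can share reads with their partners, so the choice can favour partners of high level. The lists were also chosen with earlier results of these data known, and nothing is concluded from these shares. No immediate-early gene of 26 and no cytokine or chemokine gene of 26 was one. The NF-kB and Toll-like receptor list of 41 gave Tnfaip2 and Ikbke with 3 members, the interferon list of 37 gave Irf2 and the macrophage list of 22 gave Fyb, each with 1 member. These counts depend on the partner rule. Gm47079 was paired with Icam4, at a mean of 0.073 TPM, but it also overlaps Icam1 of the NF-kB list, at 409 TPM. Among the partners of the other 492 antisense genes were 1, 3, 1, 1 and 1 genes of the immediate-early, NF-kB, cytokine, interferon and macrophage lists.

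Gm40578 (ENSMUSG00000113029.1, chromosome 12, 111450405 to 111500840, minus strand) meets Tnfaip2, a gene induced by tumour necrosis factor, tail-to-tail. It had 135.0, 120.6 and 225.2 TPM, against 1281, 746 and 1477 TPM for Tnfaip2, and for both replicate 3 was highest and replicate 2 lowest. Of its exonic bases 29.4% lie in exons of Tnfaip2 and 32.9% in its introns. Gm28913 (chromosome 1, 131263330 to 131266749) and Gm28914 (chromosome 1, 131259507 to 131260553) lie inside Ikbke, which encodes a kinase of the interferon response. Gm28913 had 129.6, 172.8 and 155.1 TPM and Gm28914 41.9, 76.3 and 45.9 TPM, against 1190, 1220 and 1169 TPM for Ikbke. Both are short, with 364 and 667 spliced bases, and the table made from the reads put Gm28913 at 438 TPM. Of their exonic bases 82.1% and 76.2% lie in introns of Ikbke and 17.9% and 23.8% in its exons. What set their levels was not tested. Gm45479 (chromosome 8, 46763251 to 46764973), wholly in introns of the interferon regulatory factor gene Irf2, had 29.5, 39.3 and 28.6 TPM, against 160.7, 133.5 and 142.2 TPM for Irf2. Gm2245 (chromosome 15, 6604341 to 6654303), with 90.6% of its exonic bases in introns of the adaptor gene Fyb, had 48.5, 49.3 and 65.7 TPM, against 1087, 1230 and 1394 TPM for Fyb. All 5 members thus lay below partners of high level in every library.

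AC119228.1 (ENSMUSG00000117964.1, chromosome 19, 29373417 to 29384471, minus strand) had the highest level of all members. It lies inside Cd274, which encodes PD-L1, a ligand that restrains T cells. It had 191.9, 224.1 and 244.7 TPM, against 290.4, 292.0 and 378.7 TPM for Cd274, a log2 ratio of -0.54 ± 0.13 (SD, n = 3). Of its exonic bases 10.8% lie in coding exons of Cd274 and 89.2% in its introns, where unspliced Cd274 RNA has the same bases. It averaged 11121 counts, against 14975 counts for Cd274. AC119228.1 was lower than Cd274 in all 3 libraries, and both were highest in replicate 3.

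**Figure D3:**
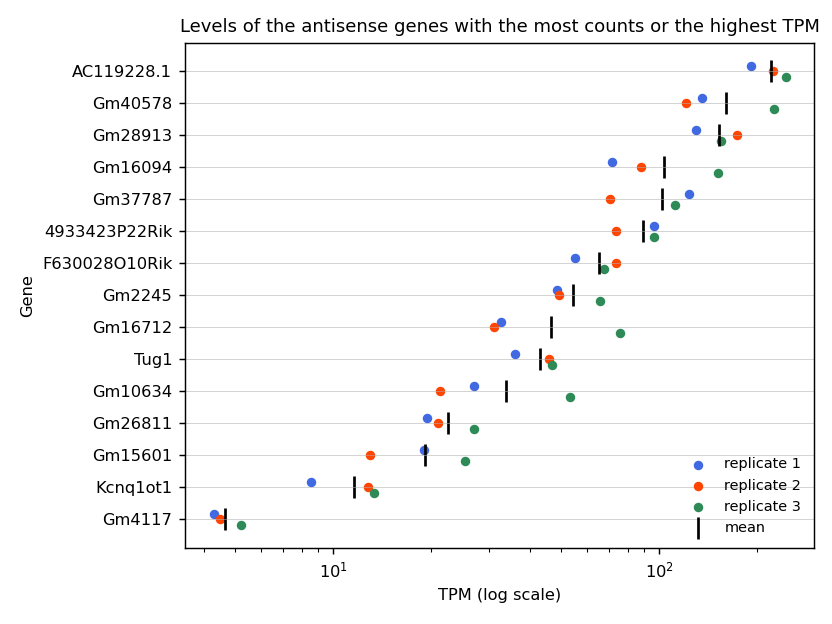
TPM (log axis) of the 12 members with the most counts and the 5 with the highest mean TPM, 15 genes in all since AC119228.1 and Gm40578 are in both sets. Coloured points are the 3 libraries and black marks their means, from 220.2 TPM for AC119228.1 to 4.66 TPM for Gm4117.

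Further members of high count or level were Gm37787, Gm16094 and Gm10634. Gm37787 (chromosome 1, 171634879 to 171636022), inside Slamf7, a receptor gene of leukocytes, had 123.6, 70.8 and 111.8 TPM, against 360, 295 and 561 TPM for Slamf7, and the table made from the reads gave it a mean of 187.3 against 102.1 TPM in the gene tables. Gm16094 (chromosome 1, 85599286 to 85599839) diverges from Sp110, a nuclear body protein gene, with 469 bases between the starts. It had 71.5, 87.8 and 152.0 TPM, against 314, 312 and 286 TPM for Sp110, and the table made from the reads gave it a mean of 211.7 against 103.8 TPM in the gene tables. On TMM-scaled log2 CPM, both Gm16094 and Sp110 were lowest in replicate 2, as were 80 of the 150 members. On that scale Gm16094 was highest in replicate 3 but Sp110 in replicate 1. By TPM, Gm16094 rose from replicate 1 to replicate 3, while Sp110 was lowest in replicate 3. Gm10634 (chromosome 9, 88719629 to 88806264) spans Bcl2a1d, a gene that restrains cell death. It had 27.0, 21.2 and 53.4 TPM, against 100.9, 61.3 and 170.0 TPM for Bcl2a1d, and both ran in the same order over the libraries. Bcl2a1d has close paralogs at this locus, and how reads were shared among them was not tested. The coding gene with the highest level on the opposite strand of Gm10634 was Mthfsl, with a mean of 136.5 TPM.

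Several of the most counted members had a level above their partner. Gm16712 (ENSMUSG00000097077.1, chromosome 17, 55954771 to 55959381, minus strand) overlaps Ebi3, the gene of a subunit of interleukin-27, tail-to-tail. It had 32.8, 31.1 and 75.8 TPM, against 19.2, 19.3 and 40.0 TPM for Ebi3, and both were highest in replicate 3. The log2 ratio was 0.81 ± 0.13 (SD, n = 3), with 73.6% of the exonic bases of Gm16712 in introns of Ebi3. 4933423P22Rik (chromosome 2, 90479236 to 90488425), wholly in introns of the receptor phosphatase gene Ptprj, had 96.4, 73.9 and 96.6 TPM, against 62.9, 71.4 and 63.9 TPM for Ptprj. The ratio of this pair, 0.42 ± 0.32, was near 0 in replicate 2.

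Of the 30 members above their partner, 12 had a partner with a mean under 10 counts and 18 one with more. Among these 18, Gm17435 (chromosome 8, 72492934 to 72505499) had 29.9, 29.1 and 35.0 TPM, against 7.47, 8.40 and 10.1 TPM for Med26, a subunit gene of the Mediator complex. E130307A14Rik (chromosome 10, 39621412 to 39732007) had 14.9, 18.8 and 15.5 TPM, against 4.86, 10.04 and 7.83 TPM for Traf3ip2, an adaptor gene of interleukin-17 signalling. Of the exonic bases of Gm17435, 58.9% lie in introns of Med26 and 7.80% in its exons. For E130307A14Rik, 33.2% lie in introns of Traf3ip2 and 4.10% in its exons. Gm12000 (chromosome 11, 11695133 to 11696439), wholly in introns of the lymphoid and myeloid transcription factor gene Ikzf1, had 32.2, 24.9 and 35.4 TPM, against 24.1, 23.1 and 20.1 TPM for Ikzf1. The log2 ratios were 1.75 ± 0.10, 1.02 ± 0.33 and 0.44 ± 0.34 (SD, n = 3), so in the gene tables the member was higher in every library of all 3 pairs. In the table made from the reads Gm12000 had a mean of 53.8 TPM, against 86.6 TPM for Ikzf1, and the direction turned.

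Tug1 (ENSMUSG00000056579.18, chromosome 11, 3639785 to 3649673, minus strand), a conserved long non-coding RNA, starts 482 bases from Morc2a, a chromatin regulator gene, and overlaps it head-to-head. It had 36.1, 45.9 and 46.8 TPM, against 25.6, 31.2 and 34.1 TPM for Morc2a, a log2 ratio of 0.49 ± 0.05. Only 4.96% of its exonic bases lie in exons of Morc2a and none in introns. The head-to-head pair with the lowest ratio was Gm37305, 491 bases from the start of the cyclin gene Ccnl1. Gm37305 had 4.37, 5.87 and 7.59 TPM, against 830, 565 and 802 TPM for Ccnl1.

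The remaining members with the most counts lay at genes of other functions. Gm26811 (chromosome 6, 89304630 to 89327621) had 19.3, 20.9 and 27.1 TPM, against 89.6, 84.5 and 115.6 TPM for Plxna1, a semaphorin receptor gene. Gm15601 (chromosome 14, 45563834 to 45598512) had 19.0, 12.9 and 25.4 TPM, against 187.9, 135.0 and 196.4 TPM for the phospholipase gene Ddhd1. Gm4117 (chromosome 13, 89739460 to 89887166), tail-to-tail with the DNA repair gene Xrcc4, had 4.29, 4.49 and 5.20 TPM, against 8.54, 8.53 and 11.8 TPM for Xrcc4. Gm4117 has 52997 spliced bases, which placed it among the most counted at a level under the median of the members.

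In some pairs the partner was close to silent. The highest ratio to the partner was that of Gm17056 (chromosome 12, 40198656 to 40201105), head-to-head with Lsmem1. It had 23.1, 21.9 and 51.9 TPM, against 0.14, 0.07 and 0 TPM for Lsmem1. However, the gene Ifrd1, on the opposite strand with 576, 327 and 894 TPM, ends 462 bases from Gm17056, and both were highest in replicate 3. Whether reads beyond the end of Ifrd1 add to Gm17056 was not tested. Gm26740 (chromosome 10, 22187013 to 22302835) had 29.6, 43.5 and 37.7 TPM, against 0.16, 0.74 and 0.52 TPM for Raet1e, a ligand gene of the receptor NKG2D. Its highest opposite-strand coding gene was H60b with 1.06 TPM.

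For some other pairs with a silent partner, another gene on that strand was expressed. Etohd2 had 11.8, 15.1 and 13.9 TPM beside a partner listed at 0, Gm49354, but it also overlaps Tut7 with a mean of 189.3 TPM. Gm26642 had 2.55, 8.95 and 3.29 TPM beside Elf3 at 0, 0 and 0.05 TPM, but Rnpep on the same strand as Elf3 had a mean of 88.8 TPM. Gm27177 had 13.2, 11.4 and 13.0 TPM beside Loxl2 at 0.17, 0.09 and 0.54 TPM, and it overlaps Entpd4b with 10.5 TPM. In all 11 members overlapped no opposite-strand coding gene with 10 counts, among them Kcnq1ot1, Gm17056, Gm16094, Gm30329, Gm15987 and Gm4673 and the 5 without a partner. With the highest opposite-strand coding gene in place of the longest overlap, 23 members rather than 30 lay above it.

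At the low end of the ratios, E530011L22Rik (chromosome 9, 121754662 to 121759943) had 1.47, 2.15 and 2.66 TPM, against 384, 404 and 404 TPM for Nktr, a cyclophilin-related gene that it meets tail-to-tail. Gm7008 (chromosome 12, 40222758 to 40229184), inside Ifrd1, had 7.88, 7.30 and 13.9 TPM, against the values of Ifrd1 given above. The log2 ratios were -7.01 ± 0.25 and -5.81 ± 0.38 (SD, n = 3). Both members were lower than the partner in all 3 libraries, and 41.3% of the exonic bases of E530011L22Rik lie in exons of Nktr.

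Of the partners, 7 had more than 1 member, and the members of 1 partner can share its reads and are not separate observations. Lrmda was the partner of Gm7480 with 110.1, 93.5 and 93.4 TPM, 4930405A10Rik with 39.2, 46.5 and 51.6 TPM and Gm10248 with 5.45, 6.63 and 7.01 TPM, against 80.5, 108.9 and 131.8 TPM for Lrmda. Arhgap10 was the partner of 0610038B21Rik with 17.1, 20.98 and 26.4 TPM, Gm45406 with 11.3, 12.5 and 15.5 TPM and 4933421D24Rik with 8.80, 9.03 and 13.4 TPM, against 116.2, 110.3 and 116.7 TPM for Arhgap10. Gm7480 and 4930405A10Rik are embedded in Lrmda, while Gm10248, the lowest of the 3, meets it tail-to-tail. On TMM-scaled log2 CPM, all 3 and Lrmda itself were lowest in replicate 2, as were 80 of the 150 members. By TPM, Lrmda, 4930405A10Rik and Gm10248 were lowest in replicate 1, while Gm7480 was highest there. Gm45406 and 4933421D24Rik are embedded in Arhgap10 and 0610038B21Rik overlaps it head-to-head, and all 3 were highest in replicate 3 by TPM. Arhgap10 itself was highest in replicate 1 on TMM-scaled log2 CPM, with 7.99, 7.55 and 7.78, and by TPM its replicates 1 and 3 were close.

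Variation between the libraries was tested for each gene with a chi-square test of the 3 counts against Poisson sampling, adjusted by Benjamini-Hochberg over all 14330 genes that averaged 10 counts or more. It was beyond counting noise at 0.05 in 102 of 150 members, or 68.0%, against a background of 54.9% of all genes tested. The power of this test grows with the count that chose the members. Among the 7968 genes with at least the count of the lowest member the share was 72.0%, and among the other antisense genes it was 32.1%. The members' share lies near that of the 7968 genes, a set with no upper limit of count that is not matched to the members. The biological coefficient of variation, the spread beyond counting noise estimated with edgeR, had a median of 20.4% in members and 22.1% in all genes tested. It was 18.7% in the 7968 genes with at least the count of the lowest member and 27.8% in the other antisense genes. Without replicate 2, 57 members were called, against 27.9% of 14021 genes.

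On TMM-scaled log2 CPM, the members were most often highest in replicate 3. This was so for 70 members, or 46.7%, against 31.4% of all genes tested. Replicate 2 was highest for 37 members, or 24.7%, against 39.4% of all genes tested. Replicate 1 was highest for 43 members, or 28.7%, against 29.2%. Replicate 2 was lowest for 80 members, and the share of all genes lowest there was not worked out. RNA input, depth and any difference between the cultures cannot be told apart here. The partner was highest in the same library in 70 of 145 pairs, and in 66 of the 133 pairs whose partner averaged 10 counts or more. By TPM, 76 members, or 50.7%, were highest in replicate 3, against 31.6% of all genes tested, and the partner was highest in the same library in 96 pairs. Of all genes tested, 7.77% were highest in replicate 1 by TPM, against 29.2% by log2 CPM, so the counts of pairs on the 2 scales are not comparable. The share for unlinked genes was not worked out, so neither count shows that pairs vary together. The highest library was the same on both scales for 103 members, so the order of libraries depends on the scale for the others.

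Gm15512 (chromosome 14, 33365951 to 33370143) had the largest spread, with 7.18, 3.14 and 10.8 TPM, against 44.1, 20.7 and 48.0 TPM for its partner Arhgap22. Its SD of log2 CPM, the library-scaled count on a log2 scale with TMM factors, was 1.04. Gm26759 had 2.56, 11.5 and 9.14 TPM, Gm9917 2.01, 4.63 and 1.21 TPM, and Gm26642, given above, was also in this set, as was Gm10634. Gm15512 and Gm10634 were lowest in replicate 2, Gm9917 and Gm26642 were highest there, and Gm26759 was lowest in replicate 1. The posterior SD was 33.5% of the count for Gm26759, 6.17% for Gm15512 and 5.97% for Gm9917, and 83.1%, 63.3% and 49.5% of their exonic bases are covered by opposite-strand exons. It exceeded 5% in 4 members, and the other, Gm27177 with 10.03%, had an SD of log2 CPM of only 0.38. Its part in their spread was not tested. The partner of Gm9917, the tumour suppressor gene Rassf1, ran in the same order, with 9.54, 18.6 and 7.20 TPM.

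The smallest spreads were those of Gm19522 with 3.52, 4.70 and 4.25 TPM, Gm4117 and F630028O10Rik. Their SDs of log2 CPM were 0.011, 0.013 and 0.021, and none was called beyond counting noise, with adjusted p of 0.99, 0.92 and 0.66 in the chi-square test. All 3 had a posterior SD of 0 and no opposite-strand exon over theirs. However, 99.8% of the exonic bases of Gm4117 lie in introns of Xrcc4. Whether unspliced Xrcc4 RNA adds to its count is not shown by the posterior SD and was not tested. Kcnq1ot1 was lower in replicate 1 than in the others and was called, with an SD of log2 CPM of 0.20.

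**Figure D4:**
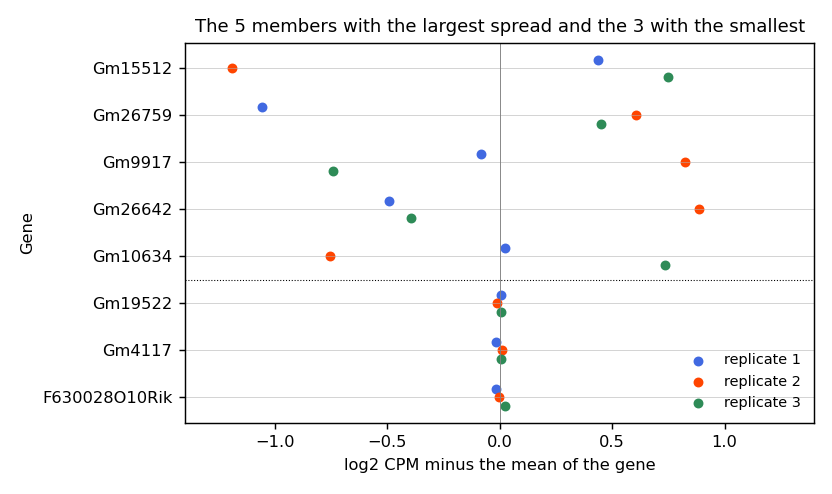
Deviation of log2 CPM (TMM-scaled) in each library from the mean of the gene (horizontal axis) for the 5 members with the largest spread, above the dotted line, and the 3 with the smallest, below it. The points of Gm15512 lie widest, with an SD of 1.04, and those of Gm19522 closest, with an SD of 0.011.

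The 2 deposited quantifications gave a similar, though not the same, order of the members by TPM. Spearman's rho of the mean TPM was 0.886 across the 150 genes, the median ratio of the table made from the reads to the gene tables was 1.08, and 128 members agreed within 2-fold. The median ratio was 1.81 in the other antisense genes and 1.29 in protein-coding genes. Members were chosen by high counts in the gene tables, the divisor of this ratio, so a lower ratio in members follows in part from the choice. The medians therefore do not show that the members agree better. Higher values from the reads were found for Gm48754 at 13.8 times, Gm20234 at 8.40 times, 2900089D17Rik at 7.11 times and Gm9917 at 5.93 times, and the lowest ratio was 0.534 for Gm26759. F630028O10Rik had 46.5 TPM from the reads, against 65.5 TPM in the gene tables, and Gm4117 10.6 against 4.66 TPM. Among members named above, the mean from the reads was also over 1.5 times that of the gene tables for Gm26740, with 64.3 against 36.9 TPM, for Gm27177, with 24.3 against 12.5 TPM, and for E530011L22Rik, with 3.87 against 2.09 TPM. It was 1.54 times for Gm7480, 1.64 times for 4933421D24Rik and 1.71 times for E130307A14Rik.

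**Figure D5:**
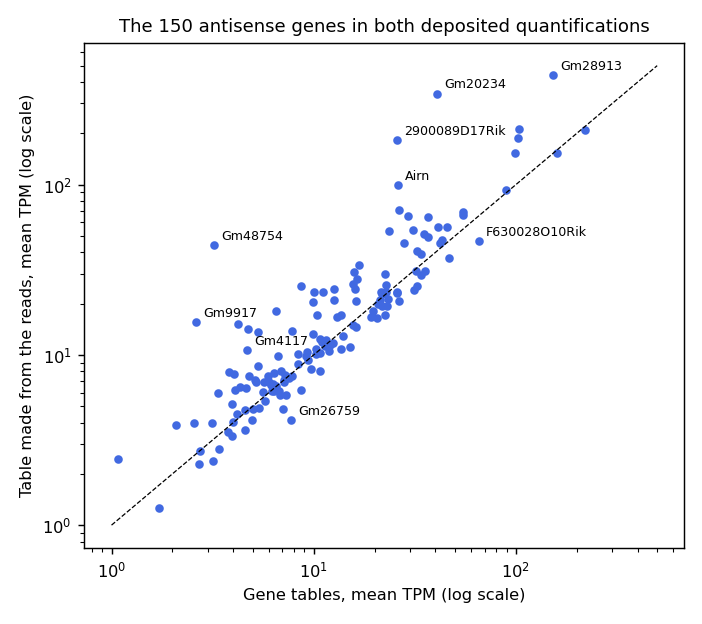
Mean TPM of the 150 members from the table made directly from the reads (vertical log axis) against the gene tables (horizontal log axis), with the line of equality dashed. Most points follow the line, and Gm48754, Gm20234, 2900089D17Rik, Gm9917 and Airn lie above it, at 3.82 to 13.8 times.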

How the data were processed

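Total RNA of the chromatin fraction, depleted of ribosomal RNA, was sequenced in 3 libraries. Per gene, the authors deposited expected counts, which are estimated counts that need not be whole, TPM, a posterior SD of the count and an effective length, both treated as a score, per the file headers. A further deposited table, made directly from the reads, holds estimated counts and TPM per transcript and was summed to genes. The build was mm10 with GENCODE M21, per the labels. The names and settings of the programs, strand included, were not stated. Library sizes leave out entries without a gene: phiX, with 1.13%, 0.324% and 0.279% of counts, spike-ins with 0 counts and 26248 numeric entries with 24, 29 and 25 counts.

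Members and lists were chosen with earlier results of these data known. Counts were rounded for the noise test and for edgeR 4.0.16 (intercept only, TMM factors); DESeq2 1.42.0 size factors were an alternative. The noise test was tested on simulated data. Partners were the opposite-strand coding genes with the longest overlap or, failing that, a divergent start within 1000 bases. Ratios used TPM + 1. A gene at 0 counts may hold up to 3, or 0.217, 0.175 and 0.182 CPM by library. Named members are the 12 with the most counts, the 5 with the highest TPM, the 5 with the largest and 3 with the smallest spread, the 5 highest and 3 lowest ratios to the partner, the 3 on either side of the border, and those at listed partners or on the list of known RNAs. Members of shared partners, miRNA-bearing members, members without a partner, further members above theirs, genes next to members and the strongest differences between the tables were named after their values were seen, and the check of the posterior SD was chosen then too.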

Additional observations from a re-analysis of the deposited data

How the results depend on the processing

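Of the 150 members, 95 were kept when ranked by the counts made from the reads and 99 when ranked by TPM, so the membership depends on the table and unit; leaving out a replicate kept 143 to 148. The members' share of counts was 0.595% in the table made from the reads and 0.760% without Malat1, Gm26917 and Gm42418 in the total, with 0.541 to 0.556% when a replicate was left out. Their median level was 13.2 TPM from the reads and 9.99 to 11.3 TPM without a replicate. Members called beyond counting noise numbered 57 to 81 without a replicate, against 27.9 to 43.5% of all genes tested. Under the other settings they numbered 96 to 111, against 32.5 to 68.3% of all genes tested. With a mean of at least 50 counts, 103 members were called, against 68.3%. The median coefficient of variation was 17.02 to 22.8% without a replicate, lowest without replicate 2. The median log2 ratio to the partner was -1.90 with a pseudocount of 0.1, -1.97 in pairs with at least 1 TPM in both and, chosen after seeing the data, -1.61 in members without opposite-strand exon overlap; without a replicate it was -1.80 to -1.75. Counting the overlap against every annotated gene, also chosen after seeing the data, gave a posterior SD of 0 for 97.2% of antisense genes without overlap, against 92.7%. The count of members above the partner was 26 to 30 under the planned settings. By TPM, a scale chosen after seeing the data, 76 rather than 70 members were highest in replicate 3. Of the 36 named genes, 12 moved by more than 1.5 times in the table made from the reads. The causes were not tested. No paired analysis was possible because there is 1 group. At 13802716 to 17187524 counts, no member was near the limit of detection, which follows from their choice by count.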
